A study of Mus musculus with 30 samples.

Results

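With earlier results of these data known, nitric oxide signalling was examined through 10 of the 36558 genes, chosen by name for their role. They are the nitric oxide synthases Nos1, Nos2 and Nos3, the soluble guanylate cyclase subunits Gucy1a1, Gucy1a2 and Gucy1b1, the cGMP effectors Prkg1 and Pde5a, and the dimethylarginine hydrolases Ddah1 and Ddah2. RNA was sequenced from hearts and white adipose tissue of C57BL/6J males that carried the vector AAV8-F11 or its control AAV8-GFP. There were 7 F11 hearts, 6 GFP hearts, 8 F11 adipose samples and 8 GFP adipose samples. All mice received a high-fat diet (HFD) for 7 weeks together with l-NAME, which blocks nitric oxide synthases, and were 15 weeks old at collection. No group without l-NAME or on another diet was analysed here, so each value describes tissue under synthase inhibition. The AAV8 capsid is known for delivering genes to liver cells, and F11 is the gene of coagulation factor XI, which the liver secretes. The labels give no promoter for the vectors and do not name the fat depot.

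Nitric oxide synthases make nitric oxide from arginine. The gas diffuses into neighbouring cells and binds the heme of soluble guanylate cyclase, a dimer of an alpha and a beta subunit, which then makes cGMP. cGMP activates a protein kinase that relaxes smooth muscle, and phosphodiesterases break it down again. Asymmetric dimethylarginine (ADMA) is an endogenous inhibitor of the synthases that the dimethylarginine hydrolases degrade.

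Library totals, in units of 1e6 estimated counts, were 28.1 to 33.02 in F11 hearts, 25.75 to 30.6 in GFP hearts, 16.8 to 26.3 in F11 adipose tissue and 15.95 to 22.5 in GFP adipose tissue. Levels are counts per 1e6 (CPM) after TMM scaling over all 29 libraries, so both tissues share a scale. Tissue labels were checked against markers. The summed CPM of 6 cardiomyocyte markers was 54320 to 71985 in hearts, and that of 6 adipocyte markers was 11386 to 20557 in adipose tissue, against 773 to 1190 in hearts. GFP adipose library L140 held 5780 CPM of the cardiomyocyte markers, against at most 110.6 CPM in any other adipose library. F11 adipose library L142 held 3463 CPM of epididymis and testis markers, and F11 adipose L145 and L146 and GFP adipose L136 were rich in liver transcripts. The vector's gene F11 averaged 4.84 CPM in F11 adipose tissue and 0.818 CPM in GFP adipose tissue (two-sided exact permutation test, p = 0.00295). Its adipose ranges overlapped, at 0.382 to 11.9 CPM with F11 and 0 to 3.46 CPM with GFP. The part of liver transcripts in these values was not tested. In hearts the F11 gene averaged 0.0203 CPM with F11 and 0.099 CPM with GFP (p = 0.437 by the same exact test), so it gave no check of the heart labels. The labels give each library a number but do not say that each came from its own animal, so the tests measure variation among libraries, some of which may be technical.

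No gene of the 10 passed the adjusted threshold of 0.05 in hearts, where 0.872% of 14684 tested genes did, or in adipose tissue, where 0% of 15229 did. In adipose tissue, however, the 3 cyclase subunits were 1.35 to 1.5-fold higher with F11, and each had an unadjusted p of 0.00358 or lower. At an unadjusted p under 0.05, 4 of the 10 genes were higher in F11 adipose tissue and none was lower, while 2.55% of all tested genes were higher and 1.64% lower at that level. These 4 are not independent, since Gucy1a1 and Gucy1b1 rose together over the adipose libraries (Pearson r = 0.918). The fourth gene, Ddah2, kept an unadjusted p under 0.05 in 7 of 16 fits without 1 library. In hearts 1 of the 10 was higher and none lower, against 6.23% and 6.24% of all tested genes. Positive fold changes were found for 9 of the 10 genes in adipose tissue, against 49.8% of all tested genes, and for 5 of the 10 in hearts, against 47.5%. For each of the 10 genes the F11 and GFP ranges overlapped in both tissues, while 1.06% of genes in hearts and 0.0197% in adipose tissue did not overlap. The median log2 fold change of the 10 genes was 0.13 in adipose tissue and -0.01 in hearts, and that of all tested genes was -0.00071 and -0.0056. The plot of fold changes shows both tissues side by side.

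**Figure D1:**
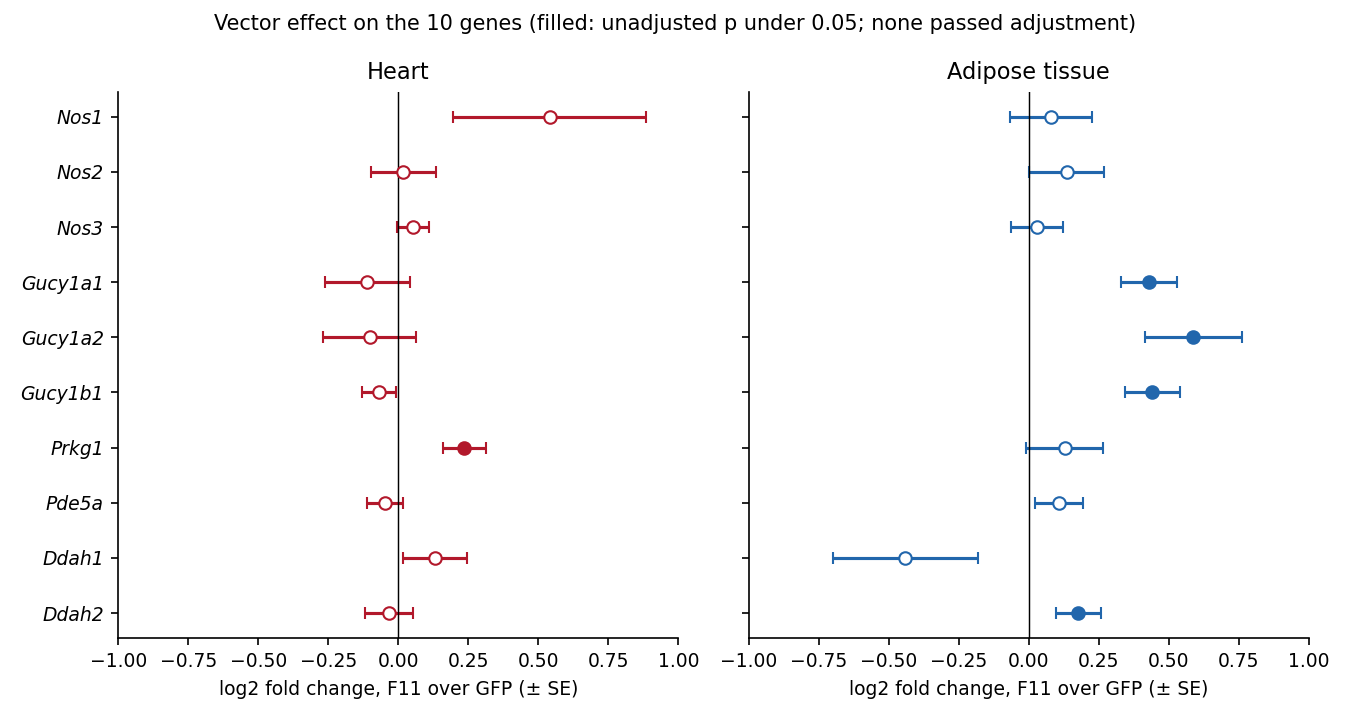
Log2 fold change of each gene, F11 over GFP, with its standard error, in hearts (left, 7 F11 and 6 GFP libraries) and adipose tissue (right, 8 and 8). Filled points had an unadjusted p under 0.05, and none passed the adjusted threshold. The subunits Gucy1a1, Gucy1a2 and Gucy1b1 stand at 0.43, 0.59 and 0.44 in adipose tissue and between -0.11 and -0.07 in hearts.

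Among the synthases, the endothelial enzyme gene Nos3 had the highest counts in both tissues. Nos3 lies on chromosome 5 at 24364810 to 24384474 of GRCm38. In F11 hearts Nos3 ranged from 45.5 to 55.5 CPM with a median of 47.6 CPM, and in GFP hearts from 42.3 to 51.9 CPM with a median of 48.2 CPM. In adipose tissue it ranged from 33.6 to 54.4 CPM (median 41.0) with F11 and from 34.5 to 47.0 CPM (median 41.9) with GFP. The vector groups overlapped almost completely in both tissues. The log2 fold change of Nos3 was 0.05 (SE 0.06, adjusted p = 0.775) in hearts and 0.03 (SE 0.09, adjusted p = 0.9995) in adipose tissue. Of the 31-base words of its transcripts, 25.1% also occur in transcripts of Gm15587 or of Atg9b, which lies on the other strand, so its estimated counts are uncertain. Words shared with each of these genes were not counted separately, and no values were found for Gm15587. Atg9b starts at 24384181, shortly before the end of Nos3. Atg9b, whose end overlaps that of Nos3, averaged 1.32 ± 0.276 CPM in F11 hearts and 1.02 ± 0.178 CPM in GFP hearts (SD, n = 7 and 6). In adipose tissue Atg9b averaged 0.725 ± 0.235 CPM with F11 and 0.870 ± 0.217 CPM with GFP (SD, n = 8 each).

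Nos2, the inducible enzyme gene of activated macrophages, was present in every library at moderate counts. In F11 hearts it had 12.1 to 18.7 CPM (median 14.3) and in GFP hearts 11.7 to 17.9 CPM (median 13.2). In adipose tissue it had 6.09 to 10.8 CPM (median 9.32) with F11 and 6.25 to 10.2 CPM (median 8.44) with GFP. With TMM scaling Nos2 was thus higher in hearts (with library totals alone the log2 difference was -0.28 with F11, adjusted p = 0.0415, and -0.12 with GFP, adjusted p = 0.393), and the summed CPM of 8 macrophage markers was 190 ± 21.2 in F11 hearts and 211 ± 18.7 in GFP hearts, against 1489 ± 838 and 1681 ± 742 in F11 and GFP adipose tissue (SD, n = 7, 6, 8 and 8). Over the libraries of a tissue, the Nos2 profile lay close to that of Nos3, ranking 110 of 10346 genes in hearts and 28 of 10930 in adipose tissue by the distance described further on. Neither vector contrast of Nos2 passed, with log2 fold changes of 0.02 (SE 0.12) in hearts and 0.14 (SE 0.13) in adipose tissue.

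Nos1, the neuronal enzyme gene, was near the counting limit in hearts, with 8 to 51 counts per library. It had 0.448 to 2.31 CPM (median 0.933) in F11 hearts and 0.454 to 1.15 CPM (median 0.561) in GFP hearts. The highest value belonged to 1 F11 heart, L35, and the remaining F11 hearts lay at 1.22 CPM or below. The log2 fold change in hearts was 0.54 (SE 0.35, adjusted p = 0.563), which was 0.22 without L35. In adipose tissue Nos1 was higher, at 2.86 to 4.14 CPM (median 3.20) with F11 and 1.75 to 4.08 CPM (median 3.32) with GFP. The lowest adipose value, 1.75 CPM, came from L140, the library with cardiomyocyte transcripts. The other 7 GFP adipose libraries had 2.78 CPM or more, and without L140 the log2 fold change of Nos1 was -0.01 instead of 0.08.

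**Figure D2:**
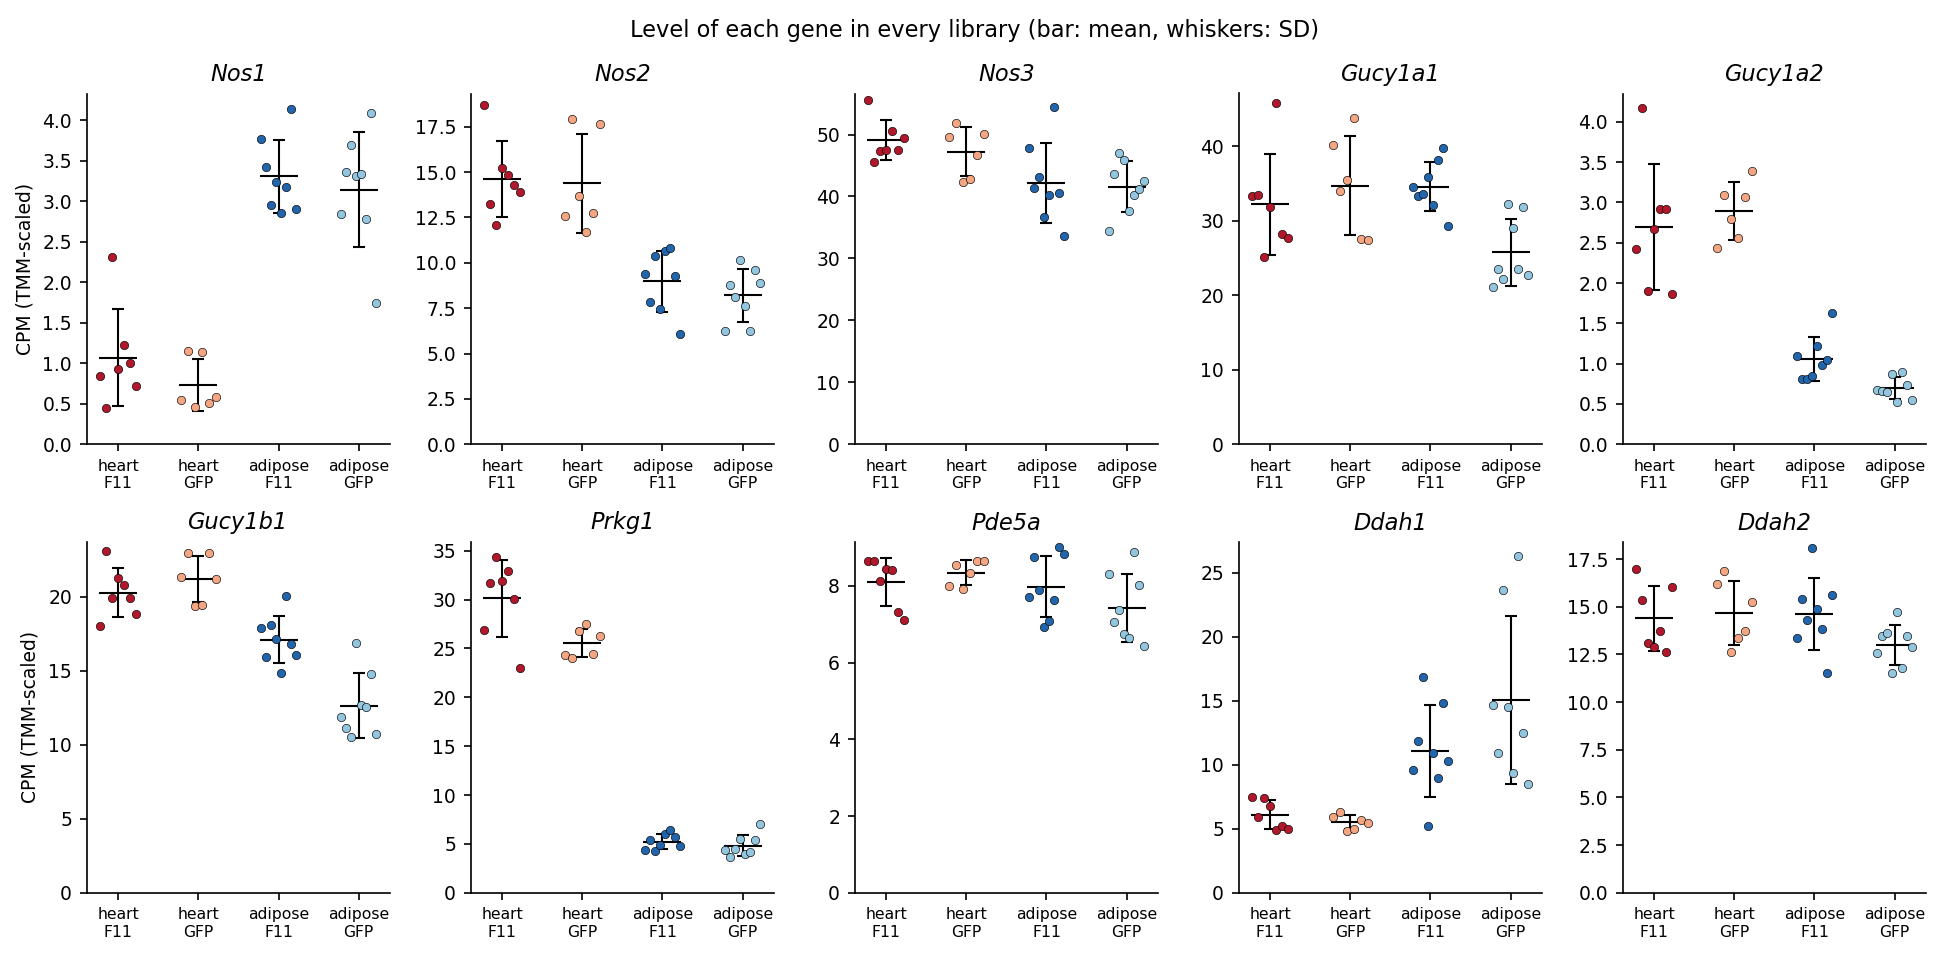
CPM of the 10 genes in every library, with points for libraries, bars for group means and whiskers for SD, in F11 hearts (n = 7), GFP hearts (n = 6), F11 adipose tissue (n = 8) and GFP adipose tissue (n = 8). Most vector pairs overlap widely, the 3 cyclase subunits sit higher in F11 than in GFP adipose tissue, and Prkg1 is at 23.0 to 34.4 CPM in hearts against 3.68 to 7.00 CPM in adipose tissue.

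The receptor subunits are shown with the sequence around the starts that RefSeq gives them, because they were the members with the largest joint difference. Gucy1b1, the beta subunit that holds the heme, lies on chromosome 3 at 82032006 to 82074689, and Gucy1a1, its main alpha partner, lies on the same minus strand at 82092427 to 82145789 (GRCm38). Gucy1a2, the other alpha subunit, lies on the plus strand of chromosome 9 at 3532778 to 3894736. These gene coordinates are GENCODE's, and the RefSeq window of Gucy1a2 ends before the GENCODE start. RefSeq windows of 250 bases before to 50 bases after the start (GRCm38.p6) were searched on both strands for the CCAAT box, the GC box (GGGCGG), the TATA box (TATAAA) and the E-box (CACGTG), and matches are in capitals.
Gucy1b1 (chr3:82074662-82074961, minus strand): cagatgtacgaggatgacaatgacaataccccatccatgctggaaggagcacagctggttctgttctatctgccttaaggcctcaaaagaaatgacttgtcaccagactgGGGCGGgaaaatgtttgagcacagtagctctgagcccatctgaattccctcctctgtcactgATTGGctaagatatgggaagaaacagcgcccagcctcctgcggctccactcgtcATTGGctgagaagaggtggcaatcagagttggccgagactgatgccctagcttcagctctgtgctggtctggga
Gucy1a1 (chr3:82145601-82145900, minus strand): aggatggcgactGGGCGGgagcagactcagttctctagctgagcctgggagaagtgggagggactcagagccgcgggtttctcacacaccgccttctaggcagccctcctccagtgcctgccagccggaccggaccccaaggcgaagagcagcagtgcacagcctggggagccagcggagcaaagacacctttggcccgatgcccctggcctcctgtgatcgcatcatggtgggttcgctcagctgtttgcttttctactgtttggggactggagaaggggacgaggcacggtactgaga
Gucy1a2 (chr9:3532099-3532398, plus strand): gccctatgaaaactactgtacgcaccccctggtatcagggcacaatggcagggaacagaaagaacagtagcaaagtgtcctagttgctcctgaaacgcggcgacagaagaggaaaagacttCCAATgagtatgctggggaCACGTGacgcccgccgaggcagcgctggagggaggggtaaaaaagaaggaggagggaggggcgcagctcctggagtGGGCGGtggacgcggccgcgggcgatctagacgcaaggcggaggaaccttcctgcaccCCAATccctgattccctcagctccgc
The Gucy1b1 window held 2 CCAAT boxes, both on the reverse strand as ATTGG, and 1 GC box. The Gucy1a1 window shown held 1 GC box, and its other RefSeq window (chr3:82145024-82145323) held none of the 4 motifs. The Gucy1a2 window held 2 CCAAT boxes, 1 GC box and 1 E-box. The GC box was the only one of the 4 motifs found in all 3 windows shown. It is not particular to them, since the windows of Pde5a, Ddah2 and Prkg1 also held it, while those of Ddah1 and Nos1 did not. Among all promoters, a CCAAT box stands in 37.4% of 32851 promoter windows, a GC box in 35.7%, a TATA box in 13.6% and an E-box in 7.15%. Windows were found for 8 of the 10 genes, and these matches are descriptions of letters only.

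In adipose tissue Gucy1b1 had 14.9 to 20.0 CPM (median 17.0) with F11 and 10.5 to 16.8 CPM (median 12.2) with GFP. Each of the 8 F11 libraries exceeded the middle GFP value, and the ranges overlapped only through GFP library L136, which exceeded 4 of the 8 F11 libraries. Gucy1b1 averaged 17.1 ± 1.58 CPM with F11 and 12.6 ± 2.18 CPM with GFP (SD, n = 8 each), a log2 fold change of 0.44 (SE 0.10). Its unadjusted p of 0.000323 in the edgeR quasi-likelihood test was the 5th lowest of 15229 genes, and the adjusted p was 0.852. The call depended on the tool and on which libraries were fitted together. DESeq2 gave an adjusted p of 0.0323 and edgeR fitted over all libraries gave 0.0461, while over the other alternatives the adjusted p was 0.15 or higher.

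Gucy1a1 showed the same picture at a higher count. In adipose tissue it had 29.3 to 39.7 CPM (median 34.1) with F11 and 21.1 to 32.3 CPM (median 23.5) with GFP. Every F11 library exceeded the GFP median, and GFP libraries L136 and L139 reached into the F11 range. Gucy1a1 averaged 34.6 ± 3.32 CPM with F11 and 25.8 ± 4.51 CPM with GFP, a log2 fold change of 0.43 (SE 0.10, unadjusted p = 0.000547, adjusted p = 0.939 in edgeR). It did not pass with DESeq2 either (adjusted p = 0.0576).

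Gucy1a2 was scarce in fat, with 18 to 43 counts per F11 library and 11 to 22 per GFP library, so counting error weighs on its values. It had 0.807 to 1.63 CPM (median 1.01) with F11 and 0.521 to 0.899 CPM (median 0.662) with GFP. All 8 F11 libraries were above the GFP median, and 3 of them lay below the highest GFP library. The log2 fold change was 0.59 (SE 0.17, unadjusted p = 0.00358, adjusted p = 0.939).

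Without the 6 adipose libraries rich in transcripts of other tissues, the log2 fold changes were 0.47 for Gucy1b1, 0.47 for Gucy1a1 and 0.74 for Gucy1a2. The libraries left out were L142, L143, L145 and L146 with F11 and L136 and L140 with GFP. L143 met the rule with only 6.93 CPM of epididymis and testis markers, against 3463 CPM in L142. Markers of vessel wall cells had mostly positive fold changes in adipose tissue, and those of immune cells and fibroblasts mostly negative ones. The summed CPM of 12 mural markers (pericytes and smooth muscle) was 1255 ± 145.7 with F11 and 1138 ± 121 with GFP (SD, n = 8 each), with ranges of 992 to 1522 and 992 to 1337 CPM. Of these markers 10 of 12 had a positive fold change, with a median of 0.24 on the log2 scale, and 3 were higher at an unadjusted p under 0.05: Kcnj8 (log2 0.59), Notch3 (0.32) and Abcc9 (0.34). The summed endothelial markers were 1238 ± 205 CPM with F11 and 1128 ± 164 CPM with GFP, with 10 of 11 positive. Positive values were found for 0 of 8 macrophage markers (median log2 -0.18), 1 of 5 fibroblast markers (median -0.22) and 0 of 5 lymphocyte markers (median -0.22). No marker of these 5 lists passed the adjusted threshold, no mural or endothelial marker was at 0 in any adipose library, and the part of cell makeup in the subunit values was not tested. In bulk tissue, fewer cells of a type and less RNA per cell cannot be told apart.

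In hearts the same subunits did not separate. Gucy1b1 had 18 to 23.1 CPM (median 19.9) in F11 hearts and 19.3 to 22.9 CPM (median 21.3) in GFP hearts, a log2 fold change of -0.07 (SE 0.06). Gucy1a2 had 1.87 to 4.17 CPM (median 2.67) with F11 and 2.44 to 3.39 CPM (median 2.93) with GFP, a log2 fold change of -0.10 (SE 0.17). Gucy1a1 had 25.1 to 45.8 CPM (median 31.8) in F11 hearts and 27.4 to 43.8 CPM (median 34.8) in GFP hearts, a log2 fold change of -0.11 (SE 0.15). All 3 heart ranges overlapped and none had an unadjusted p under 0.05.

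Whether the F11 effect differed between the tissues was tested as an interaction. The F11 effect in hearts minus that in adipose tissue was -0.50 (SE 0.12) for Gucy1b1, -0.53 (SE 0.17) for Gucy1a1 and -0.68 (SE 0.25) for Gucy1a2 on the log2 scale. Adjusted p-values were 0.210, 0.383 and 0.454 in edgeR, where 0.0242% of 16526 genes passed and none of the 10. At an unadjusted p under 0.05 these 3 of the 10 genes were lower in this contrast and none was higher, against 3.72% and 3.71% of all genes. For Gucy1b1 the call depended on the tool and on 1 library, with an adjusted p of 0.0135 in DESeq2, 0.0415 in limma voom and 0.0368 in edgeR without GFP adipose library L136.

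**Figure D3:**
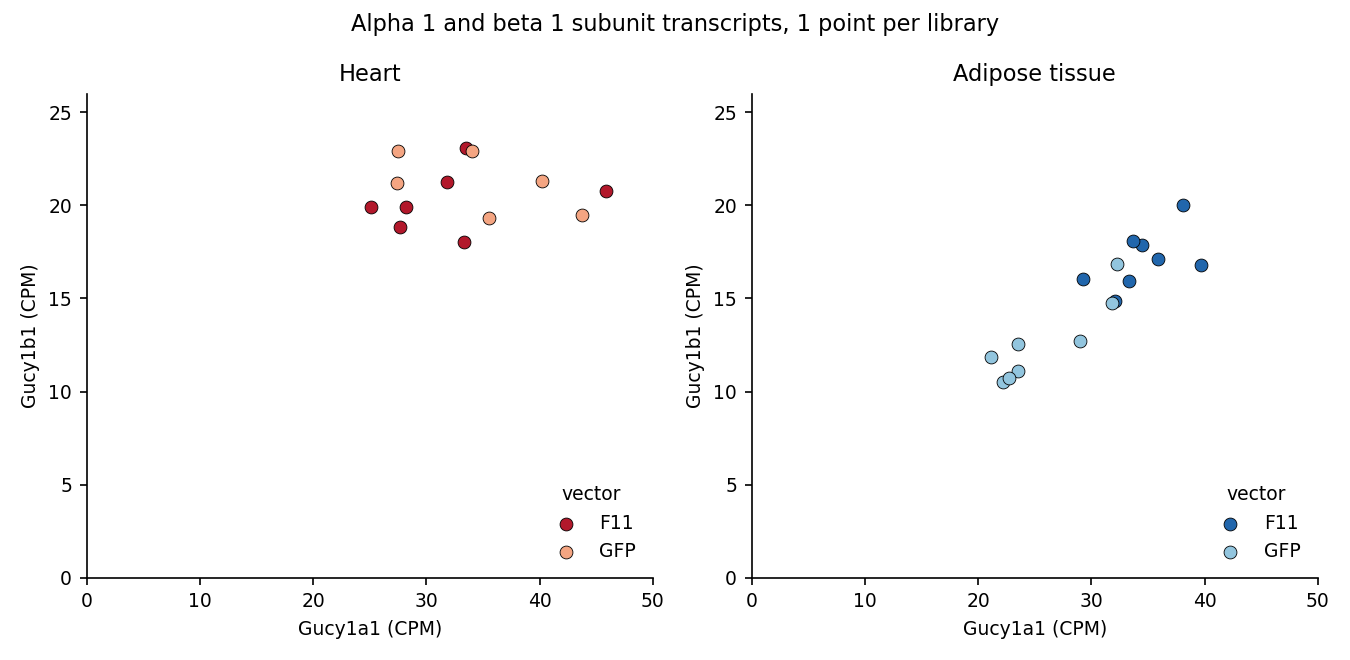
Gucy1b1 against Gucy1a1 in CPM, 1 point per library, in hearts (left) and adipose tissue (right), coloured by vector. In adipose tissue the points rise together (Pearson r = 0.918), and in hearts Gucy1a1 spreads over 25.1 to 45.8 CPM while Gucy1b1 stays between 18 and 23.1 CPM.

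The alpha 1 and beta 1 subunits must pair in the enzyme, so their balance was examined. Over the 16 adipose libraries, log2(CPM + 0.1) of Gucy1a1 and Gucy1b1 correlated with r = 0.918 and rho = 0.894 (permutation p = 1e-05, the smallest that 100000 resamples can give, and 2e-05, adjusted over 6 relations to 6e-05 and 0.00012). The relation did not rest on the vector difference alone, since r was 0.797 after each group was centred on its mean (permutation p = 0.00025). Within F11 libraries r was 0.558 and within GFP libraries 0.874, and without the 2 libraries farthest from the median, L133 and L135, it was 0.904. Over the 13 hearts the same pair gave r = -0.02 and rho = -0.02 (permutation p = 0.957 and 0.963), with 0.29 within F11 hearts, -0.58 within GFP hearts and -0.11 without L38 and L35. The log2 ratio of Gucy1a1 to Gucy1b1 was 1.01 ± 0.127 in F11 and 1.02 ± 0.120 in GFP adipose tissue (SD, n = 8 each, exact permutation p = 0.875, adjusted over 6 ratio tests 0.918). In hearts the ratio was 0.65 ± 0.271 with F11 and 0.69 ± 0.350 with GFP (exact permutation p = 0.798, adjusted 0.918). The ratio of Gucy1a2 to Gucy1a1 likewise did not differ beyond the spread, at -4.94 ± 0.405 in F11 and -5.03 ± 0.299 in GFP adipose tissue (exact permutation p = 0.637) and -3.55 ± 0.338 in F11 and -3.53 ± 0.440 in GFP hearts (exact permutation p = 0.918).

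Gucy1b1 also went with the mural markers. Its level correlated with the summed mural list at r = 0.722 and rho = 0.735 in adipose tissue (permutation p = 0.00175 and 0.0017, adjusted 0.00525 and 0.0051), 0.723 within F11 and 0.740 within GFP libraries. Without L146 and L133, r was 0.618. In hearts r was 0.665 and rho 0.555 (permutation p = 0.0135 and 0.0528, adjusted 0.0269 and 0.106), with 0.761 within F11 and 0.824 within GFP hearts and 0.758 without L8 and L1. Nos3 and the endothelial cadherin gene Cdh5 gave r = 0.570 and rho = 0.465 in adipose tissue (permutation p = 0.0209 and 0.0716, adjusted 0.0313 and 0.107), with 0.766 within F11, 0.372 within GFP and 0.539 without L148 and L140. In hearts they gave r = 0.202 and rho = 0.198 (permutation p = 0.509 and 0.517), with -0.39 within F11, 0.37 within GFP and 0.194 without L8 and L6.

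The genes whose profiles over the libraries of a tissue were most like that of Gucy1b1 were found by the root mean square distance between standardised log2 profiles. Over 16 adipose libraries and 10930 genes, the nearest was Gucy1a1 (distance 0.406), followed by Daam2 (0.491), Notch3 (0.5004), Arhgef17 (0.585) and Cep250 (0.658), against a median distance of 1.43. Notch3, a receptor of mural cells, is also on the mural list. Over 13 hearts and 10346 genes, genes near Gucy1b1 included Cbwd1 (0.577), Ankrd44, Filip1l and Zfp366 (0.648), and Gucy1a1 ranked 5847. For Nos3 the nearest in hearts were Piezo1 (0.421), Mcm3, Cnn2, Ccnd1 and Dchs1 (0.512), and in adipose tissue Ubxn8 (0.475), Pitpnm2, Cpped1, Ets2 and Cav2 (0.660). Piezo1 encodes a mechanically gated ion channel, and Cav2 encodes a caveolin.

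**Figure D4:**
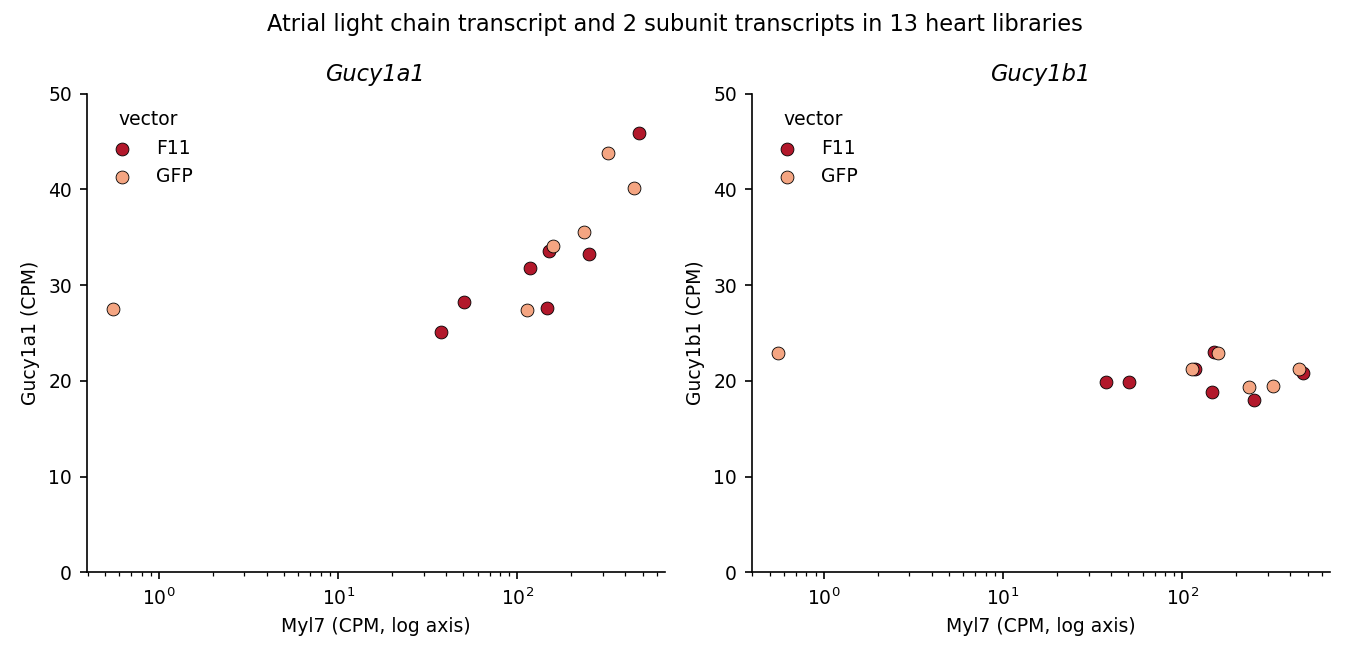
Gucy1a1 (left) and Gucy1b1 (right) in CPM against the atrial light chain gene Myl7 in CPM on a log axis, 1 point per heart library, F11 and GFP. Gucy1a1 is highest in L38 (45.8 CPM), L6 (43.8) and L1 (40.2), where Myl7 is at 320 to 474 CPM, and Gucy1b1 shows no such order.

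In hearts the spread of Gucy1a1 followed transcripts of the atria, a relation noticed after the values were seen. Myl7, the atrial myosin light chain gene, ranged from 37.5 to 474 CPM in F11 hearts and from 0.554 to 448 CPM in GFP hearts. The F11 heart with the highest Gucy1a1, L38 at 45.8 CPM, had 474 CPM of Myl7, and the one with the lowest, L35 at 25.1 CPM, had 37.5 CPM. Over the 13 hearts Gucy1a1 and Myl7 gave rho = 0.912 (permutation p = 5e-05, adjusted over the 10 genes 0.0005) and, on the log2(CPM + 0.1) scale, r = 0.624 (permutation p = 0.0116, adjusted 0.116). Without L8 and L35, the libraries farthest from the median of Myl7, r was 0.855, and it was 0.879 within F11 and 0.693 within GFP hearts. For the other 9 genes the adjusted p was 0.784 or higher for r and 0.879 for rho. The part of atrial tissue in the heart values of Gucy1a1 was not tested in the model.

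Of the effectors, Prkg1 (chromosome 19, 30564489 to 31765033), the cGMP-dependent kinase gene, had the lowest p of the 10 genes in hearts. It had 23.0 to 34.4 CPM (median 31.7) in F11 hearts and 24.0 to 27.5 CPM (median 25.4) in GFP hearts. In 5 of 7 F11 hearts Prkg1 was above every GFP heart, L31 lay within the GFP range and L40 lay below it. Prkg1 averaged 30.1 ± 3.93 CPM with F11 and 25.6 ± 1.46 CPM with GFP (SD, n = 7 and 6), a log2 fold change of 0.24 (SE 0.08, unadjusted p = 0.00712, adjusted p = 0.177 in edgeR). The call turned on L40, since without it the log2 fold change was 0.29 with an adjusted p of 0.0182. The summed CPM of 6 cardiomyocyte markers was also higher in F11 hearts, at 66046 ± 3164 against 56069 ± 1641 in GFP hearts (SD). The ranges of the sum did not overlap. The median log2 fold change of these markers in hearts was 0.09. All 6 were positive, 2 had an unadjusted p under 0.05 and 1 passed the adjusted threshold in edgeR. The part of cardiomyocyte content in the Prkg1 values was not tested.

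In adipose tissue Prkg1 had 4.30 to 6.45 CPM (median 5.12) with F11 and 3.68 to 7.00 CPM (median 4.42) with GFP, a log2 fold change of 0.13 (SE 0.14). The highest GFP value came from L140, and the other 7 GFP libraries had at most 5.54 CPM. Pde5a, the cGMP phosphodiesterase that sildenafil inhibits, varied little in either tissue. It had 7.11 to 8.65 CPM (median 8.41) in F11 hearts and 7.91 to 8.66 CPM (median 8.43) in GFP hearts. In adipose tissue it had 6.93 to 9.01 CPM (median 7.80) with F11 and 6.42 to 8.89 CPM (median 7.22) with GFP. Its log2 fold changes were -0.05 (SE 0.06) in hearts and 0.11 (SE 0.08) in adipose tissue, with overlapping ranges in both.

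The ADMA hydrolases differed in spread. In adipose tissue Ddah1 had 5.18 to 16.8 CPM (median 10.6) with F11 and 8.46 to 26.3 CPM (median 13.5) with GFP, and GFP libraries L135 and L138 stood apart at 23.7 and 26.3 CPM. Ddah1 was the only one of the 10 genes with a negative fold change there, at -0.44 on the log2 scale (SE 0.26, unadjusted p = 0.11, adjusted p = 0.9995), at -0.70 without the libraries rich in other tissues (adjusted p = 0.9997), and at -0.27 without L138. Ddah2 had 11.5 to 18.1 CPM (median 14.6) with F11 and 11.5 to 14.7 CPM (median 13.2) with GFP, a log2 fold change of 0.18 (SE 0.08, unadjusted p = 0.0425, adjusted p = 0.9995). The log2 ratio of Ddah1 to Ddah2 was -0.46 ± 0.649 with F11 and 0.11 ± 0.644 with GFP (SD, n = 8 each), which an exact permutation test did not separate (p = 0.101, adjusted over 6 ratio tests 0.605).

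In hearts Ddah1 had 4.91 to 7.5 CPM (median 5.91) with F11 and 4.81 to 6.32 CPM (median 5.58) with GFP, and Ddah2 had 12.6 to 17.0 CPM (median 13.7) with F11 and 12.6 to 16.9 CPM (median 14.5) with GFP. Their log2 fold changes were 0.13 (SE 0.11) and -0.03 (SE 0.09). Both ranges overlapped. The log2 ratio of Ddah1 to Ddah2 in hearts was -1.24 ± 0.301 with F11 and -1.39 ± 0.0734 with GFP (exact permutation p = 0.269, adjusted 0.806).

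Genes around the pathway were read from 8 lists chosen by role, and none of their members passed the adjusted threshold in either vector contrast. On the list of particulate guanylate cyclases and natriuretic peptides, 4 of 12 genes were tested in adipose tissue and 6 in hearts. Nppa and the kinase substrates Pln and Tnni3 had the lowest p-values of their lists in adipose tissue, with log2 fold changes of -4.66, -4.04 and -4.07. These values came from L140. Nppa had 102 CPM in L140, at most 0.841 CPM in F11 adipose libraries and at most 1.52 CPM in the other 7 GFP libraries. Mb, the myoglobin gene of the nitric oxide removal list, had 966 CPM in L140, at most 7.04 CPM in F11 and at most 16.9 CPM in the other GFP libraries.

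The other genes named by the rule had the lowest adipose p-values of their lists, and L140 was not examined separately for them. Sod2, the mitochondrial superoxide dismutase gene, averaged 145.1 ± 20.1 CPM in F11 and 181 ± 23.1 CPM in GFP adipose tissue (log2 -0.31, SE 0.09, unadjusted p = 0.0048, adjusted p = 0.9995). The chaperone gene Hsp90aa1, whose product binds the endothelial synthase, averaged 265 ± 26.8 CPM with F11 and 298 ± 24.6 CPM with GFP (log2 -0.16, unadjusted p = 0.0248). The calmodulin gene Calm3 had a log2 fold change of -0.06, the particulate cyclase Npr2 of 0.11, and the phosphodiesterases Pde1c and Pde10a of -0.63 and 0.12. The tetrahydrobiopterin genes Spr and Pcbd2 stood at -0.07 and -0.04, the arginine transporters Slc7a1 and Slc7a3 at 0.43 and 0.19, and the arginine methyltransferases Prmt3 and Carm1 at -0.18 and -0.05. All 6 tested genes of arginine supply and use had positive fold changes in adipose tissue, with a median of 0.19, and none had an unadjusted p under 0.05. In hearts Npr1, the natriuretic peptide receptor gene, averaged 27.4 ± 1.74 CPM with F11 and 32.3 ± 3.29 CPM with GFP (log2 -0.24, unadjusted p = 0.0016, adjusted p = 0.0894), a gene named after its values were seen. In hearts 1 of the 6 tested genes of its list, Npr1, was lower at an unadjusted p under 0.05 and 1, Npr2, was higher (log2 0.08, unadjusted p = 0.0495).

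**Figure D5:**
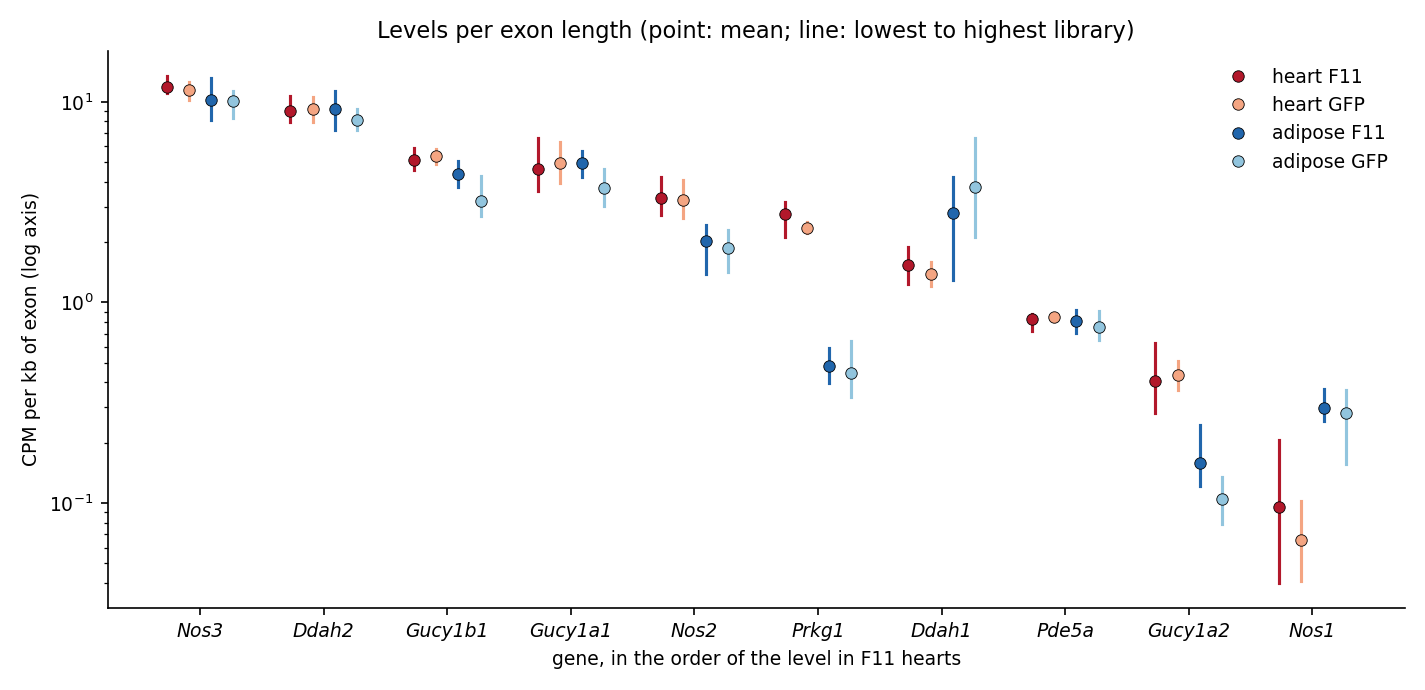
Mean level of each gene per kb of exon (CPM per kb, log axis) in F11 hearts, GFP hearts, F11 adipose tissue and GFP adipose tissue, with lines from the lowest to the highest library. Nos3 and Ddah2 lead in all 4 groups at 8.16 to 11.9 CPM per kb, and Nos1 and Gucy1a2 close the order.

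Levels of different genes were compared per kb of the union of exons. In F11 hearts Nos3 was highest at 11.9 ± 0.792 CPM per kb and in GFP hearts at 11.4 ± 0.966 CPM per kb. Ddah2 came next with 9.03 ± 1.08 CPM per kb in F11 and 9.21 ± 1.06 in GFP hearts, followed by Gucy1b1 (5.16 and 5.40), Gucy1a1 (4.62 and 4.98), Nos2 (3.31 and 3.26), Prkg1 (2.77 and 2.35) and Ddah1 (1.53 and 1.39), each with F11 and GFP in that order. Pde5a (0.824 and 0.849), Gucy1a2 (0.405 and 0.435) and Nos1 (0.0958 and 0.0653) were the lowest. The ranges of Nos3 and Ddah2 were apart in F11 hearts and overlapped in GFP hearts. Those of Gucy1b1, Gucy1a1 and Nos2 overlapped from neighbour to neighbour in both heart groups, and those of Nos2 and Prkg1 in F11 hearts. In adipose tissue Nos3 (10.2 with F11, 10.1 with GFP) and Ddah2 (9.18 and 8.16) overlapped at the top, Ddah1 (2.78 and 3.78) stood between Ddah2 and Gucy1a1 with GFP and between Gucy1b1 and Nos2 with F11, Gucy1a1 (4.96 and 3.70) and Gucy1b1 (4.35 and 3.22) overlapped each other, and Gucy1a2 was lowest at 0.158 and 0.104 CPM per kb. The order depends on the length used. With the mean transcript length Ddah2 led in all 4 groups. Prkg1 then came 2nd in F11 hearts (14.2 CPM per kb, against 12.5 for Nos3). In GFP hearts Gucy1a1 came 2nd with that length (13.1, against 12.1 for Nos3). Nos1 and Gucy1a2 remained the lowest pair with each length.

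Between the tissues, 9 of the 10 genes differed with GFP and 7 of the 10 with F11 at an adjusted p under 0.05, where 80.2% and 81.6% of all tested genes did, so the counts stand near the background. With GFP 7 were higher and 2 lower in hearts, against 36.8% and 43.4% of all tested genes, and with F11 5 were higher and 2 lower, against 36.6% and 45.0%. The heart and adipose ranges were apart for 6 of the 10 genes with GFP and 4 with F11, against 58.6% and 58.9% of all tested genes. Tissue and library preparation cannot be told apart in any heart against adipose contrast given here. The calls near the threshold moved with the processing. With upper quartile scaling Nos3 (adjusted p = 0.131) and Gucy1b1 (0.0719) did not pass with F11, and Nos3 (0.216) and Pde5a (0.158) did not pass with GFP. Without a low-count filter Nos3 (0.0996) and Pde5a (0.122) did not pass with GFP either. Pde5a with GFP also did not pass without the libraries rich in other tissues (0.0878). Ddah2 with GFP passed with DESeq2 (adjusted p = 0.0388) and without mitochondrial transcripts (0.0275). The GFP and F11 contrasts share no library, but both came from the same fit over all 29 libraries and are not fully independent. Prkg1 was 5.74-fold higher in F11 hearts than in F11 adipose tissue (log2 2.52, SE 0.12) and 5.31-fold higher with GFP (log2 2.41, SE 0.12). Gucy1a2 was higher in hearts by a log2 difference of 1.36 (SE 0.17) with F11 and 2.04 (SE 0.18) with GFP. Nos1 was lower in hearts, by -1.63 (SE 0.26) with F11 and -2.10 (SE 0.28) with GFP, and Ddah1 by -0.86 (SE 0.22) and -1.44 (SE 0.24). The adjusted p of these 4 genes was 0.00101 or lower in edgeR with either vector, and they kept their direction under each scaling tried. Their size depended on the scaling, since with library totals alone Prkg1 stood at 1.53 with F11 and 1.48 with GFP, and Gucy1a2 at 0.38 (adjusted p = 0.043) and 1.11. Nos1 then stood at -2.62 and -3.03, and Ddah1 at -1.85 and -2.38.

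The smaller tissue differences depended on the scaling. Nos2 (log2 0.70 with F11, 0.81 with GFP), Gucy1b1 (0.24 and 0.75) and Nos3 (0.22 and 0.18) were higher in hearts with TMM scaling and had negative values with library totals alone, where their values were -0.28 and -0.12, -0.75 and -0.19, and -0.77 and -0.75. With library totals alone the median of all genes was -1.12 with F11 and -1.04 with GFP, against -0.13 and -0.11 with TMM, and the share of calls higher in hearts was 16.5% and 17.5%, against 44.9% and 45.9% with TMM. Transcripts of the mitochondrial genome took 31.6 to 34.6% of heart counts and 3.89 to 11.1% of adipose counts. Gucy1a1 was higher in GFP hearts than in GFP adipose tissue by 0.43 (SE 0.13, adjusted p = 0.00287), and lower with library totals alone (-0.50, adjusted p = 0.00129). With F11 it was at -0.10 (SE 0.12, adjusted p = 0.435), and passed as lower in hearts with library totals alone (-1.09, adjusted p = 1.19e-08). With TMM, Pde5a was at 0.02 with F11 (adjusted p = 0.790) and passed as higher in hearts with GFP at 0.17 (adjusted p = 0.045), and Ddah2 did not pass at -0.02 with F11 or 0.17 with GFP (adjusted p = 0.798 and 0.0694). With library totals alone both passed as lower in hearts, Pde5a at -0.97 and -0.77 and Ddah2 at -1.01 and -0.76.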

How the data were processed

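Total RNA of hearts and white adipose tissue was made into mRNA libraries to be read on a NovaSeq instrument (per the labels' protocols). The values deposited by the authors are estimated counts per gene from kallisto 0.46 (genome build GRCm38.p6), per the submitters' processing notes, not scaled to library size. Not given in the sources used here: annotation release, strand setting, and how transcripts were summed. Overlapping genes therefore cannot be told apart with certainty. Of the values 30.8% were not whole. Symbols and coordinates came from the GENCODE mouse annotation of GRCm38 for 35856 of 36558 gene IDs, and promoter windows from RefSeq. The labels name 30 libraries and the table held 29, so GFP heart L10 was not analysed here.

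Estimated counts were rounded and tested with edgeR 4.0.16 in R 4.3.3 (filterByExpr, TMM, robust quasi-likelihood test, two-sided), with Benjamini-Hochberg adjustment over all genes tested and a threshold of 0.05. Vector effects were fitted within each tissue, F11 over GFP, and interaction and tissue contrasts over all 29 libraries. All 10 genes passed the filter in each fit. Printed adjusted p-values are from edgeR unless another tool is named. Ratios and correlations used log2(CPM + 0.1), and correlations used 100000 resamples. Alternatives were other scalings, filters, DESeq2 1.42.0, limma 3.58.1 voom, a fit over all libraries, leaving out each library or the 6 adipose libraries with over 10 times the median of a foreign marker list, other lengths and a pseudocount of 0.5. Scaling by library totals, the tissue contrasts without those libraries and the relation with Myl7 were added after seeing the data. The members, lists and tests were chosen with earlier results of these data known. The named list genes are those past the threshold or, with none, the 2 lowest unadjusted p-values in adipose tissue per list. One of the genes with profiles most like a member's is not reported here. Library totals of 15.95 to 33.02 (1e6) set the precision, which is low for genes with few counts, and counting limits cover counting error only.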

Additional observations from a re-analysis of the deposited data

Results flagged for a closer look

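In 52 groups of 6 to 8 libraries, the highest or lowest library was set against its nearest neighbour and the range of its group, and 3 stood apart. Chance sets apart about 1 in 20 groups, so 3 of 52 is near that rate. Nos1 was at 2.31 CPM in F11 heart L35, while the next F11 heart was at 1.22 CPM. Gucy1a1 was at 45.8 CPM in F11 heart L38, while the next F11 heart was at 33.5 CPM, and L38 also had the highest Myl7 of the hearts at 474 CPM. The log2 ratio of Ddah1 to Ddah2 was -1.78 in F11 adipose library L144, while the next lowest F11 adipose library was at -0.62, and L144 had both the lowest Ddah1 (5.18 CPM) and the highest Ddah2 (18.1 CPM) of its group.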

How the results depend on the processing

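Of 459 alternative values for single genes from other scalings, filters, tools and fits, 423 kept their direction and side of the threshold, and 1118 of 1160 did when 1 library was left out. Heart calls numbered 128, and 377 with DESeq2, 196 with limma voom, 30 in the fit over all libraries and 307 at a threshold of 0.1. Adipose calls numbered 0 (638 genes had an unadjusted p under 0.05), and 6 with DESeq2, 0 with limma voom and 4 in the fit over all libraries. Interaction calls numbered 4, and 172 with DESeq2, 24 with limma voom and 2 without a low-count filter. With library totals alone 51 of 116 heart calls were higher with F11, against 76 of 128 with TMM, and 0 of 4 interaction calls were higher, against 2 of 4. Leaving out 1 library gave 87 to 179 heart calls, 0 adipose calls and 1 to 6 interaction calls. Signs turned as follows. With library totals alone the sign turned for Nos2 in hearts (-0.00503), Nos3 in the interaction (-0.0209), and between tissues for Nos2 (-0.28 with F11, -0.12 with GFP), Nos3 (-0.77, -0.75), Gucy1b1 (-0.75, -0.19), Pde5a (-0.97, -0.77), Gucy1a1 with GFP (-0.50) and Ddah2 with GFP (-0.76). Between tissues with F11, Pde5a turned to -0.0500087 with upper quartile scaling, and Ddah2 to 0.0095 with DESeq2, 0.0092 with its size factors, 0.0043 with limma voom, 0.0098 without libraries rich in other tissues and 0.0054 without mitochondrial transcripts. In adipose tissue Nos1 turned to -0.00775 with limma voom and Nos3 to -0.0303 without libraries rich in other tissues. Leaving out 1 library spread Nos2 in hearts over -0.0498 to 0.0935, Ddah2 in hearts over -0.0747 to 0.0132, Nos1 in adipose tissue over -0.00907 to 0.147, Nos3 there over -0.0305 to 0.0753 and in the interaction over -0.00711 to 0.0946, and between tissues with F11 Pde5a over -0.00718 to 0.0543 and Ddah2 over -0.0683 to 0.0239. The F11 minus GFP ratio of Gucy1a1 to Gucy1b1 ranged over -0.131 to 0.0502 in hearts and -0.0420 to 0.0131 in adipose tissue, and that of Gucy1a2 to Gucy1a1 over -0.126 to 0.0870 and -0.0310 to 0.156, with -0.0596 at a pseudocount of 0.5 in adipose tissue. The cause of these changes was not tested. Nos3 and Pde5a in GFP tissues each lost their call in 11 of 29 fits without 1 library. A test of genes under the low-count filter was not run, since all 10 passed it. No paired analysis was possible because the labels do not say which libraries came from the same animal. The heart against adipose and interaction tests treated all libraries as independent, so any pairing of tissues within a mouse was left out.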
